A study of Mus musculus with 12 samples.

Results

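The creatine cycle genes taken here are mouse genes for making (Gatm, Gamt), taking up (Slc6a8) and phosphorylating creatine (Ckb, Ckmt2), and a phosphatase gene, Alpl. They were chosen by symbol, and each of the 6 symbols named 1 of the 24890 features in the tables of expression values. Collagenase I was used to part inguinal adipose tissue (IAT, subcutaneous) and epididymal adipose tissue (EAT, visceral) into adipocytes and stromal vascular cells (SVCs), the mixture of all other cells. RNA was sequenced from IAT adipocytes, EAT adipocytes, IAT SVCs and EAT SVCs, with 3 libraries in each of the 4 groups. In all groups the mice were C57BL/6J males, 18 weeks old and fed normal chow, with no genetic change or treatment in the labels. Nothing in the labels tells separate from pooled mice, so p-values measure the spread between libraries, which may be technical.

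Creatine is made in a pair of steps. Gatm encodes the enzyme that forms guanidinoacetate from arginine and glycine, and Gamt encodes the methyltransferase that turns guanidinoacetate into creatine. Cells also take creatine up from blood through the transporter encoded by Slc6a8. Creatine kinases, among them cytosolic Ckb and mitochondrial Ckmt2, move phosphate between ATP and creatine, which buffers ATP. In mouse thermogenic fat, phosphocreatine can also be hydrolysed without useful work, a futile cycle in which Ckb and the tissue-nonspecific alkaline phosphatase encoded by Alpl have been described.

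Values are FPKM (fragments mapped per kilobase of exon and per 1 M fragments), so levels of different genes can be set beside each other. Each library had 10726 to 12425 features at 1 FPKM or more, and an estimated 14.2 M to 24.7 M fragments. Libraries of a group correlated across features at r = 0.982 to 0.996, and EAT adipocyte replicate 1 had the lowest values. All 6 adipocyte markers averaged at least 1 FPKM in each adipocyte group, but also in each SVC group. Their summed level was 31900 to 35400 FPKM in IAT adipocytes and 27500 to 37000 FPKM in EAT adipocytes, against 6390 to 7230 FPKM in IAT SVCs and 4430 to 5210 FPKM in EAT SVCs. Fabp4 made up most of each sum. The median of the 6 markers was 1270 to 1310 FPKM in IAT adipocytes and 1540 to 1720 FPKM in EAT adipocytes. In SVCs this median was 19.7 to 23 FPKM in IAT and 6.88 to 8.76 FPKM in EAT. Log2 differences are differences of log2(FPKM + 1), which understate changes of low genes, with a standard error (SE). A gene was called at an adjusted p under 0.05 from limma over 13175 features that reached 1 FPKM in 3 or more libraries, of which Gatm, Gamt, Slc6a8, Ckb and Alpl were 5. Ckmt2 did not pass that filter. Because these are bulk samples, fewer cells of a type and less RNA per cell cannot be told apart.

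The promoters of Gatm, Gamt and Ckb are shown because the synthesis enzymes differed between fractions in opposite directions and Ckb was the kinase with the highest level in every library. The windows run from 250 bases before to 50 bases after the RefSeq start site (GRCm38.p6, minus strand, 5′ to 3′), at chr2:122611228-122611527 for Gatm, chr10:80260963-80261262 for Gamt and chr12:111672289-111672588 for Ckb. Capitals mark matches, on either strand, to the TATA box (TATAAA), the CCAAT box (CCAAT) and the GC box (GGGCGG).
Gatm: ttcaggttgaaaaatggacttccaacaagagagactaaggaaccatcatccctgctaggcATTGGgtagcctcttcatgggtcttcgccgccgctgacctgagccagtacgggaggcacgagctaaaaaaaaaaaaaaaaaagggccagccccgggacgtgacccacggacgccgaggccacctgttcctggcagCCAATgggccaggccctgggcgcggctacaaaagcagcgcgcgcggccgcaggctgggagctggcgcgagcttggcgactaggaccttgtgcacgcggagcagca
Gamt: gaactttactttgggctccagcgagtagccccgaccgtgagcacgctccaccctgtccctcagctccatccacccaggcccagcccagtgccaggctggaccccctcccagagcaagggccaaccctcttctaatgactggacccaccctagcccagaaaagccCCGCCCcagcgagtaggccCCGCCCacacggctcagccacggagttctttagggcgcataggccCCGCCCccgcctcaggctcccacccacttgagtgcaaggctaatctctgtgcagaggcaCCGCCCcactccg
Ckb: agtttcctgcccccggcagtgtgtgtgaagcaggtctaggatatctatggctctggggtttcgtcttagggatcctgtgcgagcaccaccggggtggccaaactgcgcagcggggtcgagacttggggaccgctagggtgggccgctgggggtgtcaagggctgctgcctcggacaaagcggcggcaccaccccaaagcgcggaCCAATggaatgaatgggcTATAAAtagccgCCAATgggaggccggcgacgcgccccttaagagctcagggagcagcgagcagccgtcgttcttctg
The Gatm window held 2 CCAAT matches and no TATA or GC box match. The Gamt window held 4 GC box matches and neither other motif. The Ckb window held 1 TATA match and 2 CCAAT matches, with no GC box match. Among 32851 mouse promoter windows of this length, 13.6% held TATAAA, 37.4% held CCAAT and 35.7% held GGGCGG. The GC content was 60.7% for Gatm, 66% for Gamt and 63% for Ckb, beside a median of 52.7% over all windows. These matches are a description of letters and not of bound sites.

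The enzymes of creatine synthesis had opposite patterns. Gatm (chromosome 2, 122594473 to 122611277, minus strand, mm10) had 1.95, 1.55 and 1.49 FPKM in IAT adipocytes and 2.32, 1.77 and 1.83 FPKM in EAT adipocytes, against 13.1, 14.5 and 13.5 FPKM in IAT SVCs and 15.4, 14.3 and 15.2 FPKM in EAT SVCs. Every adipocyte library was below every SVC library. The adipocyte mean was 12.2% of the SVC mean in IAT and 13.2% in EAT. The log2 difference, adipocyte minus SVC, was -2.46 in IAT (SE 0.091, limma adjusted p = 3.69e-11) and -2.43 in EAT (SE 0.091, limma adjusted p = 4.51e-11). Gatm was not called between depots, with IAT minus EAT at -0.16 in adipocytes (SE 0.091, limma adjusted p = 0.198) and -0.12 in SVCs (SE 0.091, limma adjusted p = 0.317), and IAT and EAT libraries overlapped in both fractions.

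Gamt (chromosome 10, 80258151 to 80260968, minus strand, mm10) had 41.9, 36.2 and 37.5 FPKM in IAT adipocytes and 78.2, 53.7 and 62.9 FPKM in EAT adipocytes. SVC libraries held 11.3, 12.0 and 11.2 FPKM from IAT, and 11.2, 13.4 and 9.42 FPKM from EAT. Gamt was the member that was higher in adipocytes, by 1.66 in IAT (SE 0.135, limma adjusted p = 9.36e-08) and by 2.41 in EAT (SE 0.135, limma adjusted p = 2.05e-09) on the log2 scale. The ratio of means was 3.35 in IAT and 5.73 in EAT. IAT adipocytes had less Gamt than EAT adipocytes, with a log2 difference of -0.72 (SE 0.135, limma adjusted p = 0.00124), and the 3 IAT libraries lay below the 3 EAT libraries. In SVCs the depot libraries overlapped and the log2 difference was 0.03 (SE 0.135, limma adjusted p = 0.884). The depot difference in adipocytes minus that in SVCs was -0.75 (SE 0.19, limma adjusted p = 0.00919), the only such call among the 5 members tested, beside 32.5% of all features tested. EAT adipocyte replicate 1, the highest library for Gamt, correlated least with its group, and without it the adipocyte depot difference was -0.58 (limma adjusted p = 0.00148).

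Gatm thus made up little of the synthesis transcripts of adipocytes and most of those of SVCs. The share of Gatm in the summed FPKM of Gatm and Gamt averaged 4.12 ± 0.321% in IAT adipocytes and 2.96 ± 0.195% in EAT adipocytes, against 54.3 ± 0.542% in IAT SVCs and 57.1 ± 5.05% in EAT SVCs (SD, n = 3 each). Within depots the share was lower in adipocytes by -52.2 percentage points (two-sided exact permutation p = 0.005, adjusted p = 0.00667 over 4 share comparisons). That p is the smallest that the 400 arrangements allow. Between depots, within fractions, the share differed by -0.822 percentage points, IAT minus EAT (exact permutation p = 0.625), a mean of opposite differences. The 3 IAT adipocyte shares lay above the 3 EAT adipocyte shares, while the IAT SVC mean was below the EAT SVC mean, and the pooled value was 0.316 without EAT SVC replicate 3 and -2.18 without EAT SVC replicate 2. Fractions were not pure, and in adipocyte libraries markers of SVC types had, as the median share of their own level in SVCs, 4.31% in IAT and 4.04% in EAT for 6 fibroblast and progenitor markers, 19.7% and 16.9% for 5 endothelial markers, and 3.94% and 13.2% for 6 macrophage markers. The part of such carried-over RNA in the adipocyte values of Gatm was not tested. In the other direction, the median SVC level of 6 adipocyte markers, as a share of the adipocyte level, was 1.07% in IAT and 0.382% in EAT, and that of Gamt was 29.8% in IAT and 17.5% in EAT. Adipoq, Plin1, Lep and Cidec stood at 0.626% to 1.27% in IAT and 0.173% to 0.418% in EAT, and Fabp4 at 24% and 20.9% and Pparg at 22.5% and 15.6%. The part of adipocyte RNA in the SVC values of Gamt was not tested.

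**Figure D1:**
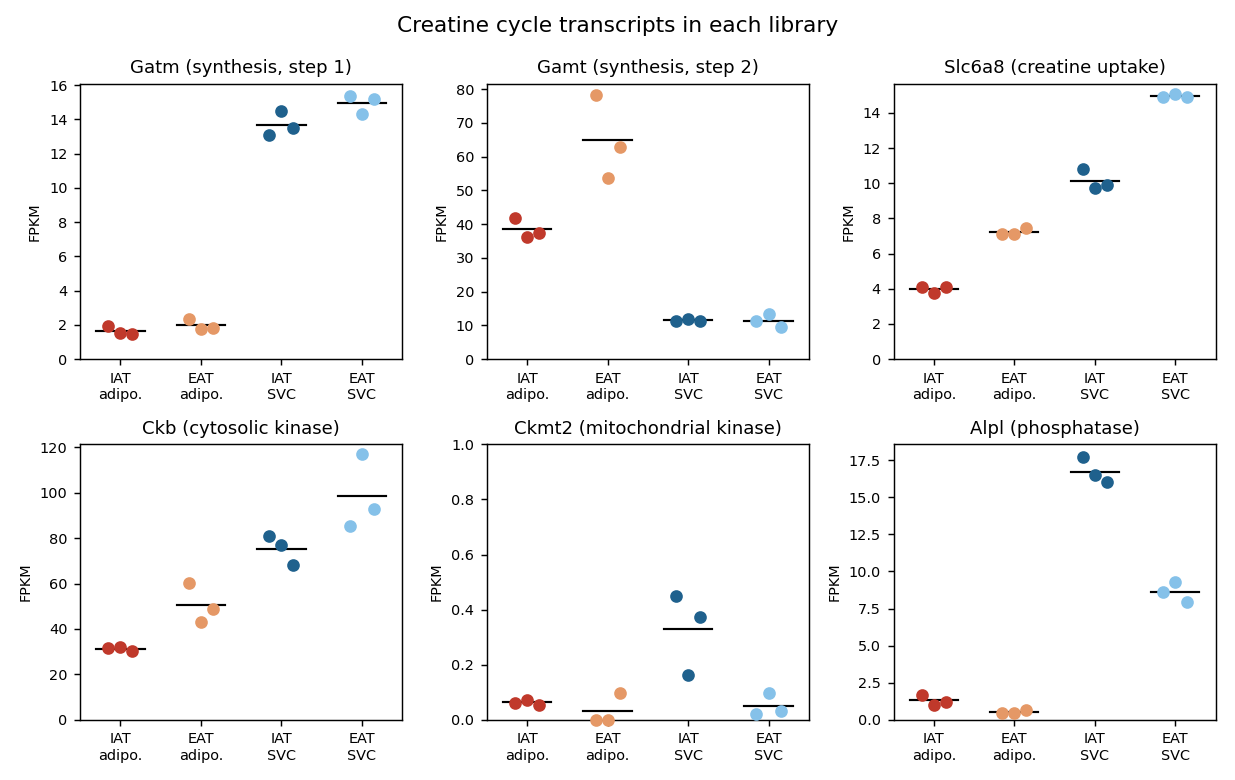
FPKM of the 6 creatine cycle genes (vertical axes, a separate linear scale for each gene) in the 3 libraries of each group; points are libraries and lines are group means. Gamt is highest in adipocytes, whereas Gatm, Slc6a8, Ckb and Alpl are highest in SVCs, and Ckmt2 stays under 0.5 FPKM in every library.

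Slc6a8, the creatine importer (chromosome X, 73673133 to 73682500, plus strand, mm10), was lower in adipocytes than in SVCs and lower in IAT than in EAT. It had 4.08, 3.73 and 4.12 FPKM in IAT adipocytes, 7.10, 7.13 and 7.44 FPKM in EAT adipocytes, 10.8, 9.73 and 9.91 FPKM in IAT SVCs and 14.9, 15.1 and 14.9 FPKM in EAT SVCs. No library of any group overlapped another group, so that the order was EAT SVCs, IAT SVCs, EAT adipocytes and IAT adipocytes. The IAT minus EAT difference was -0.73 in adipocytes (SE 0.0652, limma adjusted p = 3.13e-06) and -0.52 in SVCs (SE 0.0652, limma adjusted p = 3.68e-05). Their difference of -0.21 was not called (SE 0.0922, limma adjusted p = 0.11). Adipocyte minus SVC was -1.16 in IAT (SE 0.0652, limma adjusted p = 2.17e-09) and -0.96 in EAT (SE 0.0652, limma adjusted p = 1.53e-08). The summed level of 6 macrophage markers followed the same order, at 40.9 to 57.2 FPKM in IAT adipocytes, 197 to 249 FPKM in EAT adipocytes, 1080 to 1210 FPKM in IAT SVCs and 1620 to 1700 FPKM in EAT SVCs, with all 6 at 1 FPKM or more in each group. Its part in the Slc6a8 differences was not tested.

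Ckb, the cytosolic brain-type kinase (chromosome 12, 111669355 to 111672338, minus strand, mm10), had the highest level of the 6 genes in SVCs and was second to Gamt in adipocytes, where it had 31.6, 32.0 and 30.1 FPKM in IAT and 60.1, 42.9 and 48.8 FPKM in EAT. SVC libraries held 80.9, 77.1 and 68.1 FPKM from IAT, and 85.5, 117 and 92.7 FPKM from EAT. Adipocyte libraries lay below the SVC libraries of both depots without overlap. Group means of Ckb had the same order as the summed macrophage markers, whose part in the Ckb differences was not tested. The adipocyte mean was 41.4% of the SVC mean in IAT, with a log2 difference of -1.24 (SE 0.13, limma adjusted p = 1.25e-06), and 51.5% in EAT, with -0.95 (SE 0.13, limma adjusted p = 1.74e-05). Ckb was lower in IAT than in EAT adipocytes by -0.67 (SE 0.13, limma adjusted p = 0.00177), and by -0.54 without EAT adipocyte replicate 1 (limma adjusted p = 0.00232). In SVCs the IAT minus EAT difference was -0.37 (SE 0.13, limma adjusted p = 0.0391), and the groups did not overlap. This last call ended with median-of-ratios scaling, at -0.27 (limma adjusted p = 0.172), and without EAT SVC replicate 2, at -0.24 (limma adjusted p = 0.163), EAT SVC replicate 3, IAT SVC replicate 2 or IAT SVC replicate 3.

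Ckmt2, the sarcomeric mitochondrial kinase (chromosome 13, 91853387 to 91876885, minus strand, mm10), was near the detection limit throughout. It had 0.0615, 0.0736 and 0.0541 FPKM in IAT adipocytes, 0, 0 and 0.0972 FPKM in EAT adipocytes, 0.451, 0.162 and 0.375 FPKM in IAT SVCs and 0.0205, 0.0962 and 0.0326 FPKM in EAT SVCs. The IAT SVC libraries were the 3 highest. With no filter on low values, IAT minus EAT in SVCs was 0.33 (SE 0.0713, limma adjusted p = 0.00436) and adipocyte minus SVC in IAT was -0.32 (SE 0.0713, limma adjusted p = 0.00248). Ckmt2 overlaps an antisense RNA gene, 1700119I11Rik, and whether strand was used in counting is not given in the sources used here, so reads of the 2 genes cannot be told apart. The other 5 members overlap no other GENCODE gene.

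The other listed kinase genes each reached 1 FPKM in 1 group. Ckm, the muscle-type cytosolic kinase, had 0.260, 0.260 and 0.258 FPKM in IAT adipocytes and was listed at 0 in all EAT adipocyte libraries, against 12.9, 11.8 and 11.7 FPKM in IAT SVCs and 0.109, 0.0814 and 0 FPKM in EAT SVCs. Ckmt1, the ubiquitous mitochondrial kinase, was at most 0.234 FPKM in any adipocyte library, and had 0.0246, 0.0300 and 0 FPKM in IAT SVCs and 2.09, 2.12 and 2.24 FPKM in EAT SVCs. The IAT minus EAT difference in SVCs was 3.62 for Ckm (SE 0.0596, limma adjusted p = 4.38e-13) and -1.63 for Ckmt1 (SE 0.0593, limma adjusted p = 3.71e-10). Each gene passed the filter only through its 1 high group and so had to differ, and these values describe and do not support. Ckm overlaps the antisense gene A930016O22Rik and Ckmt1 overlaps Strc on the opposite strand, with the same limit on strand. Of 15 skeletal muscle markers, 5 averaged at least 1 FPKM in IAT adipocytes, 4 in EAT adipocytes, 12 in IAT SVCs and 7 in EAT SVCs. Their sum was 109 to 136 FPKM in IAT adipocytes and 99.7 to 134 FPKM in EAT adipocytes, where Myl1 and Acta1 together made up most of it, against 133 to 160 FPKM in IAT SVCs and 20.9 to 23.8 FPKM in EAT SVCs. Myl1 averaged 86.6 FPKM in IAT adipocytes and 74.9 FPKM in EAT adipocytes, and Acta1 averaged 24.8 FPKM and 33.1 FPKM in the same groups. Of the 15, 1 was at 0 in EAT adipocytes and 1 in EAT SVCs. Of 5 mesothelial markers, 0 averaged at least 1 FPKM in IAT adipocytes, 4 in EAT adipocytes, 1 in IAT SVCs and 5 in EAT SVCs, and 1 was at 0 in IAT SVCs. Their sum was 0.479 to 0.516 FPKM in IAT adipocytes and 14.8 to 17.3 FPKM in EAT adipocytes, against 1.51 to 1.9 FPKM in IAT SVCs and 354 to 418 FPKM in EAT SVCs. The part of muscle or mesothelial RNA in the Ckm, Ckmt1 and Ckmt2 values was not tested.

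**Figure D2:**
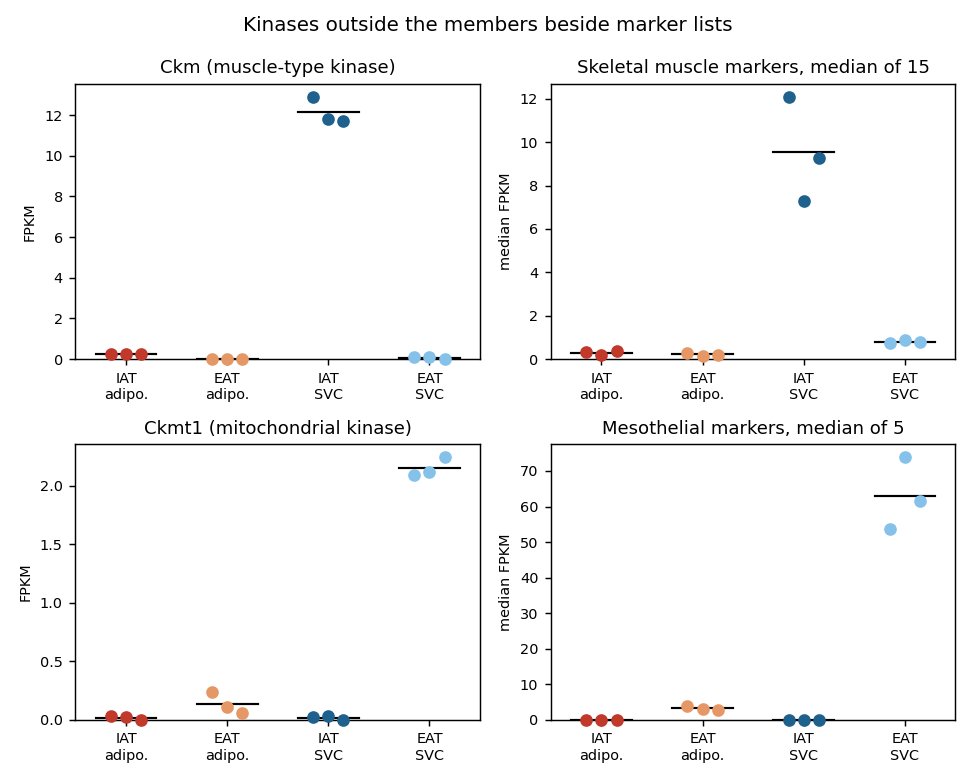
FPKM of Ckm and Ckmt1 (left) beside the median FPKM of 15 skeletal muscle and 5 mesothelial markers (right) in each library, on linear axes; points are libraries and lines are group means. Ckm and the muscle median, 7.29 to 12.1 FPKM, are highest in IAT SVCs, and Ckmt1 and the mesothelial median, 53.8 to 73.8 FPKM, are highest in EAT SVCs.

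Ckb supplied nearly all creatine kinase transcripts outside IAT SVCs. Its share of the summed FPKM of Ckb, Ckmt2, Ckm and Ckmt1 was 98.9 ± 0.0417% in IAT adipocytes and 99.7 ± 0.0686% in EAT adipocytes, against 85.8 ± 0.831% in IAT SVCs and 97.7 ± 0.313% in EAT SVCs (SD, n = 3 each). Within depots the share was 7.56 percentage points higher in adipocytes than in SVCs, and within fractions it was -6.34 percentage points in IAT minus EAT (two-sided exact permutation p = 0.005 for each, the smallest possible, adjusted p = 0.00667). Both are means of unlike differences. The fractions lay farther apart in IAT than in EAT, and the depots lay farther apart in SVCs than in adipocytes.

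Alpl, which encodes the tissue-nonspecific alkaline phosphatase (chromosome 4, 137741731 to 137796384, minus strand, mm10), was the member with the steepest drop in adipocytes and the only one called higher in IAT. It had 1.70, 1.01 and 1.19 FPKM in IAT adipocytes and 0.451, 0.455 and 0.631 FPKM in EAT adipocytes, against 17.7, 16.5 and 16.0 FPKM in IAT SVCs and 8.64, 9.28 and 7.96 FPKM in EAT SVCs. The 4 groups did not overlap. Adipocyte means were 7.75% of the SVC mean in IAT, with a log2 difference of -2.96 (SE 0.105, limma adjusted p = 2.6e-11), and 5.94% in EAT, with -2.67 (SE 0.105, limma adjusted p = 7.14e-11). The IAT mean was 2.53 times the EAT mean in adipocytes and 1.94 times in SVCs. The log2 difference, IAT minus EAT, was 0.59 in adipocytes (SE 0.105, limma adjusted p = 0.000869) and 0.88 in SVCs (SE 0.105, limma adjusted p = 2.36e-05). With a pseudocount of 0.1 in place of 1 the adipocyte difference was 1.17, since EAT adipocyte values are below 1 FPKM. The depot differences of both fractions were not called different from each other, at -0.29 (SE 0.149, limma adjusted p = 0.164), except without IAT adipocyte replicate 1, at -0.41 (limma adjusted p = 0.0303). Its sign rests on the pseudocount, and with 0.1 it was 0.22 (limma adjusted p = 0.525). The 6 fibroblast and progenitor markers summed to 187 to 211 FPKM in IAT adipocytes and 99.2 to 119 FPKM in EAT adipocytes, against 2980 to 3050 FPKM in IAT SVCs and 1260 to 1310 FPKM in EAT SVCs, with none at 0. Of the 6, Col1a1, Col3a1 and Pi16 had a higher mean in IAT than in EAT in both fractions, as Alpl did. Pdgfra (35.6 FPKM in IAT SVCs, 42.9 FPKM in EAT SVCs), Dpp4 (23.5 and 27.9 FPKM) and Cd34 (200 and 245 FPKM) had a lower mean in IAT SVCs. The part of such cells in the Alpl differences was not tested.

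**Figure D3:**
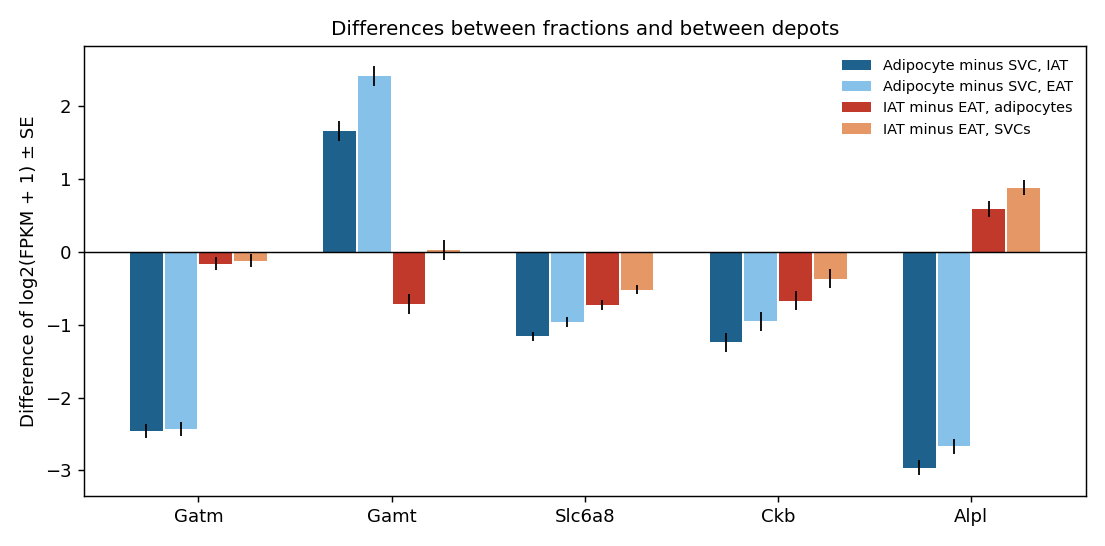
Differences of log2(FPKM + 1) with their SE (vertical axis) for the 5 tested members, adipocyte minus SVC in each depot and IAT minus EAT in each fraction, each group having 3 libraries. Gamt alone is above 0 in adipocyte minus SVC, and Alpl alone is clearly above 0 in IAT minus EAT.

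Between fractions, all 5 tested members were called in both depots, 1 higher (Gamt) and 4 lower in adipocytes, beside 83.7% of all features in IAT (29.8% higher and 53.9% lower) and 83.8% in EAT (31.1% higher and 52.7% lower). Being called was thus the rule among tested features. All 5 also had no overlap between fractions, beside 88.3% of features in IAT and 83.1% in EAT. The median log2 difference of the tested members was -1.24 in IAT and -0.96 in EAT, beside -0.34 and -0.31 over all features. Median-of-ratios scaling moved the median of all features to 0.00 in both depots and the share of higher among called features to 50% in IAT and 50.1% in EAT, where the unscaled values gave 35.6% and 37.1%, and each member kept its direction and call. Between depots, 4 of the 5 were called in adipocytes, 1 higher and 3 lower in IAT, beside 37.6% of all features (10.3% higher and 27.3% lower), with medians of -0.67 and -0.10, and the same 4 had no overlap between depots, beside 48.3% of features. In SVCs 3 were called, 1 higher and 2 lower in IAT, beside 40.2% of all features (14.0% higher and 26.2% lower), with medians of -0.12 and -0.06, and those 3 had no overlap, beside 55.1% of features. The share of higher among called features was 27.5% in adipocytes and 34.8% in SVCs, and 49.2% in each with median-of-ratios scaling, under which Ckb in SVCs was the member that lost its call. The contrasts share groups, so these counts are not independent of each other.

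Ucp1, the uncoupling protein of thermogenic fat, was low in every group, at 0.570 ± 0.196 FPKM in IAT adipocytes and 0.223 ± 0.039 FPKM in EAT adipocytes, against 0.698 ± 0.197 FPKM in IAT SVCs and 1.80 ± 0.183 FPKM in EAT SVCs (SD, n = 3 each). In adipocytes its IAT minus EAT difference was 0.35 (limma adjusted p = 0.0135), and 0.25 without IAT adipocyte replicate 1 (limma adjusted p = 0.0635). The 8 brown and beige fat markers summed to 298 to 345 FPKM in IAT adipocytes and 37.5 to 62.9 FPKM in EAT adipocytes, with 5 and 3 of them at 1 FPKM or more and none at 0. Cox8b (254 FPKM in IAT adipocytes, 29.3 FPKM in EAT adipocytes) and Cidea (40.6 and 2.12 FPKM) made up most of the sum. Dio2 had a lower mean in IAT adipocytes (0.117 and 0.188 FPKM), and Elovl3 was near the floor in both (0.0717 and 0.0631 FPKM). The sum thus had the opposite depot order to Gamt, Slc6a8 and Ckb in the same libraries, and the order of Alpl.

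The genes around the cycle were a list of 35, for substrates, carriers, adenylates and phosphate, of which 28 passed the filter. A gene that passed through 1 high group or 1 fraction alone had to differ, so the counts describe and do not support. In adipocytes minus SVCs, 13 were called higher and 13 lower in IAT, beside 83.7% of all features called, and 9 higher and 13 lower in EAT, beside 83.8%. Slc16a12, a creatine carrier of the monocarboxylate transporter family, was, like Gamt, higher in adipocytes: it had 4.57, 5.35 and 5.34 FPKM in IAT adipocytes and 13.4, 12.4 and 12.4 FPKM in EAT adipocytes, against 0.385, 0.379 and 0.379 FPKM in IAT SVCs and 0.725, 0.649 and 0.519 FPKM in EAT SVCs. All adipocyte libraries were above all SVC libraries, and EAT adipocytes were the highest group. Slc16a12 reached 1 FPKM in adipocyte libraries alone, so it passed the filter through them and its fraction difference had to arise. Its adipocyte minus SVC difference was 2.14 in IAT (SE 0.075, limma adjusted p = 2.28e-11) and 3.08 in EAT (SE 0.075, limma adjusted p = 1.03e-12), and IAT minus EAT in adipocytes was -1.18 (SE 0.075, limma adjusted p = 1.44e-07). The importer Slc6a8 thus had the opposite fraction order to Slc16a12 and the same depot order in adipocytes.

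Among substrate genes, the 3 other listed carriers were lower in adipocytes in both depots, with the arginine importer Slc7a1 at -1.70 in IAT and -2.17 in EAT (limma adjusted p = 3.09e-11 and 3.77e-12). Slc7a1 and Slc7a2 reached 1 FPKM in SVC libraries alone, so they passed the filter through that fraction and their fraction differences had to arise. Of 5 arginine and ornithine genes, adipocytes had 1 called higher and 4 called lower in IAT, and 1 higher and 3 lower in EAT. Over all features, 29.8% were called higher and 53.9% lower in IAT, and 31.1% and 52.7% in EAT. Asl, which releases arginine from argininosuccinate, was the one higher, at 0.86 in IAT and 0.41 in EAT (limma adjusted p = 5.76e-07 and 0.000573), and Arg2, a mitochondrial arginase, was at -0.77 in IAT and -1.22 in EAT (limma adjusted p = 5.7e-08 and 5.8e-10). Arg2 reached 1 FPKM only in EAT SVCs, so it passed the filter through that group and its EAT difference had to arise. Of 3 glycine genes, Gldc, a subunit of the glycine cleavage system, was found mainly in IAT adipocytes, at 2.36 ± 0.13 FPKM, against 0.169 ± 0.0463 FPKM in EAT adipocytes, 0.475 ± 0.0194 FPKM in IAT SVCs and 0.272 ± 0.0618 FPKM in EAT SVCs (SD, n = 3 each). Its IAT minus EAT difference in adipocytes was 1.52 (SE 0.0581, limma adjusted p = 1.15e-09). Only IAT adipocytes reached 1 FPKM for Gldc, so it passed the filter through that group and had to differ. Shmt2, the mitochondrial serine hydroxymethyltransferase, was lower in adipocytes, at -1.08 in IAT and -0.83 in EAT (limma adjusted p = 6.9e-08 and 9.72e-07). Of 5 methyl donor genes, 3 passed the filter, and Ahcy, which removes the S-adenosylhomocysteine that Gamt releases, was lower in adipocytes, at -0.64 in IAT and -0.90 in EAT (limma adjusted p = 1.56e-06 and 5.05e-08). Mat1a was listed at 0 in all libraries.

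Of the adenylate kinases, Ak3, the enzyme of the mitochondrial matrix, was higher in adipocytes by 1.48 in IAT and 1.60 in EAT (limma adjusted p = 6.78e-10 and 3.22e-10). Ak1, the cytosolic enzyme, was called lower in EAT, at -0.96 (limma adjusted p = 2.48e-06), and not in IAT, at -0.20 (limma adjusted p = 0.108). All 5 genes for ADP and ATP exchange and outer membrane channels were called higher in adipocytes in both depots. Of all features, 29.8% were called higher in IAT and 31.1% in EAT. Vdac1 was at 1.37 in IAT and 1.07 in EAT (limma adjusted p = 1.17e-09 and 1.45e-08). The Slc25a5 call in EAT, 0.24 (limma adjusted p = 0.0308), was lost in 4 alternatives, among them without EAT adipocyte replicate 1 (0.13, limma adjusted p = 0.0752), EAT SVC replicate 1 or EAT SVC replicate 3. Of 8 phosphate genes beside Alpl, 4 passed the filter, and the phosphate importers Slc20a1 and Slc20a2 differed in opposite directions: Slc20a1 was at -2.09 in IAT and -1.82 in EAT (limma adjusted p = 1.99e-11 and 7.46e-11), and Slc20a2 at 0.98 and 0.88 (limma adjusted p = 3.37e-06 and 9.61e-06). The other alkaline phosphatase genes, Alpi, Akp3 and Alppl2, had mean levels of at most 0.0146 FPKM in every group.

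**Figure D4:**
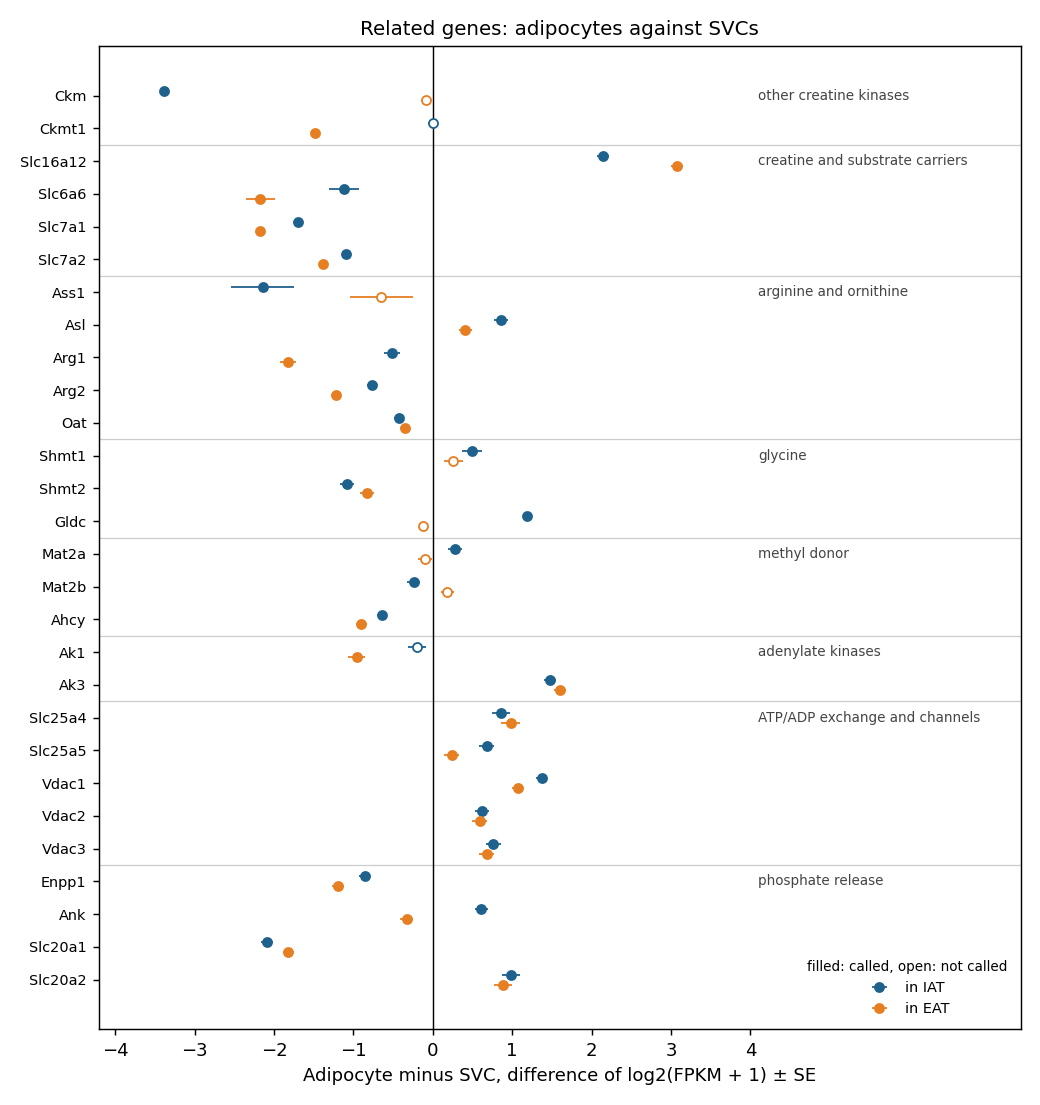
Adipocyte minus SVC differences of log2(FPKM + 1) with their SE (horizontal axis) for the 28 tested related genes in IAT and EAT, 3 libraries per group; filled points were called. Slc16a12 and Ak3 lie farthest to the right in both depots, and Ckm in IAT lies farthest to the left.

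Between depots, 4 related genes were called higher and 5 lower in IAT adipocytes, with a median of -0.05 over the 28, beside 37.6% of all features called. In IAT SVCs 4 were called higher and 14 lower, with a median of -0.25, beside 40.2% of all features. Some of these calls were lost under several alternatives, among them Slc6a6 in adipocytes in 5, and in SVCs Shmt2 in 8, Ass1 and Slc16a12 in 6 each and Mat2a in 5. Beside Slc16a12 and Gldc, the adipocyte calls included Slc20a1, at -0.71 (SE 0.072, limma adjusted p = 9.21e-06), and Slc25a5, an ADP/ATP carrier, at 0.43 (SE 0.0954, limma adjusted p = 0.00407). In SVCs, Slc7a1 was at -0.55 (SE 0.0616, limma adjusted p = 1.43e-05) and Arg1, the arginase of alternatively activated macrophages in mice, averaged 0.438 ± 0.102 FPKM in IAT SVCs and 5.13 ± 0.635 FPKM in EAT SVCs (SD, n = 3 each), with a log2 difference of -2.09 (limma adjusted p = 5.91e-09). Only EAT SVCs reached 1 FPKM for Arg1, so it passed the filter through that group and had to differ.

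The features most like each member over the 12 libraries were found by Pearson correlation of log2(FPKM + 1) among 7993 candidates with a mean of at least 5 FPKM. The libraries form 4 groups, so that such an r mostly reflects the group means, and it is given without a test. Hexim1 (r = 0.999), Napsa and Qpct (both 0.998) were most like Gatm. Prkcdbp (0.994), Marc1 and Msrb1 (both 0.992) were most like Gamt. Slc6a8 had C3ar1 (0.998), Coro1c (0.997) and Lilrb4a (0.996) nearest. For Ckb the nearest were Mgat1 (0.992), Ftl1 (0.991) and Tprgl (0.990), and for Alpl they were Sfrp2 and Thy1 (both 0.997) and Zdhhc18 (0.996).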

How the data were processed

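The 12 libraries, 3 per group, were grouped by their labels. The authors deposited 1 table per library with gene values in FPKM and confidence bounds; TopHat, Cufflinks and GRCm38 (mm10) are named in the submitters' processing notes, with no versions, settings or annotation. The tables hold no counts, and fragments estimated from the bounds came out whole within 0.02 for only 57.4% to 62.4% of low values, so no count test was run.

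The values were fitted as log2(FPKM + 1) with limma 3.58.1 (4 group means, eBayes with trend, R 4.3.3), two-sided, with Benjamini-Hochberg adjustment over 13175 features in each contrast. Of the 24890 features, 9 with a failed estimate in any library were left out. Shares were compared by exact permutation within strata. Scripts ran in Python 3.11.15 with pandas 2.3.3, NumPy 2.4.6 and matplotlib 3.10.9, and the fit was tested on simulated data. The members, the related and marker lists and the tests were chosen with earlier results of these data known. Genes named by rule were all members, up to 3 per related list with the smallest p, 3 features most like each member, and Ucp1. Further related genes were named for a called difference of depot differences or a result that changed under an alternative. Others were named for levels at or near 0. Myl1, Acta1, Cox8b, Cidea, Dio2 and Elovl3 were named after their values were seen. Alternatives were a pseudocount of 0.1, no filter or a filter on the mean, TPM and median-of-ratios scaling, the compared groups alone, no trend, a replicate block and leaving out each library. One gene of the related list is not reported here. The likeness search left out predicted and microRNA models.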

Additional observations from a re-analysis of the deposited data

Results flagged for a closer look

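The IAT minus EAT difference in adipocytes differed from that in SVCs (interaction, limma adjusted p under 0.05) for 1 member, Gamt, at -0.75 on the log2 scale (and -0.61 without EAT adipocyte replicate 1), and for 17 of the 28 related genes tested, beside 32.5% of all features. Among related genes the difference of depot differences was -3.29 for Ckm and 1.48 for Ckmt1, and both values depend on the pseudocount, since several libraries were listed at 0. Among the carriers it was -0.94 for Slc16a12, 1.05 for Slc6a6, 0.48 for Slc7a1 and 0.29 for Slc7a2. Arginine genes gave 1.31 for Arg1, 0.45 for Arg2 and 0.46 for Asl. It was 1.31 for Gldc, 0.38 for Mat2a and -0.42 for Mat2b. Adenylate and exchange genes gave 0.76 for Ak1, 0.43 for Slc25a5 and 0.30 for Vdac1. For phosphate genes it was 0.33 for Enpp1 and 0.93 for Ank. The calls of Vdac1, Enpp1, Slc25a5, Mat2a and Slc7a2 were lost in 12, 9, 8, 8 and 3 alternatives. With a pseudocount of 0.1, Arg1 was at 0.37 (adjusted p = 0.423) and Arg2 at 0.58 (adjusted p = 0.146). Ucp1 stood at 1.08, higher in IAT than EAT adipocytes and lower in IAT than EAT SVCs. Ckm, Ckmt1, Arg1, Arg2, Gldc and Ucp1 each reached 1 FPKM in 1 group alone, so their values describe and do not support.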

How the results depend on the processing

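Of the values that answer a comparison, the Ckb difference in SVCs (IAT minus EAT, -0.37) lost its call with no filter on low values (-0.37, adjusted p = 0.0575) and with median-of-ratios scaling (-0.27, adjusted p = 0.172), and ran from -0.46 to -0.24 when 1 library was left out. The number of members called in the depot difference of adipocytes minus that of SVCs was 1 to 2 when 1 library was left out, with the Alpl value from -0.41 to -0.20, and the Alpl value was 0.22 with a pseudocount of 0.1. The cause was not tested. Of such values, 272 under a planned setting and 289 with 1 library left out kept direction and call, or lay within 1.5 times for counts. Like the Alpl sign change, the others were in values not called in either case: Gamt between SVCs was -0.07 as TPM and -0.08 without EAT SVC replicate 3, the Gatm difference of depot differences was 0.01 to 0.05 in 4 alternatives, and the Gatm share between depots was 0.316 without EAT SVC replicate 3. With median-of-ratios scaling the adipocyte minus SVC difference in EAT turned to 0.03 for Oat, 0.28 for Mat2a and 0.04 for Ank, and in IAT to 0.17 for Mat2b; that scaling moved the median of all features from -0.31 in EAT and -0.34 in IAT to 0.00. The Slc7a2 difference of depot differences was -0.01 with a pseudocount of 0.1. Replicate numbers were shared between groups, but most same-numbered libraries did not deviate together (r of -0.31 to 0.37, over 0.1 in 5 of 18 pairs, and 4 of 12 libraries closest to their own number). The highest r were between IAT and EAT adipocytes, at 0.37 for replicate 1 and 0.35 for replicate 3, with -0.08 for replicate 2. With the replicate block, 4 members were called between depots in adipocytes and 3 in SVCs, where Ckb had an adjusted p of 0.05, and 5 between fractions in each depot, as without it. Precision is limited for low values: the bounds lay 21.1% to 28.7% from values near 1 FPKM, and for Ckmt2 48.5% to 200% from the value.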
